A study of Mus musculus with 4 samples.

Results

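Integrins are paired receptors, made of an alpha and a beta subunit, that tie a cell to its surrounding matrix. Laminins are cross-shaped trimers of an alpha, a beta and a gamma chain, and they form basement membranes together with nidogens, perlecan, agrin and type IV collagen. Neural stem cells of the adult brain touch blood vessel laminin through integrins that contain Itgb1, and the pair of Itga6 with Itgb1 is a known laminin receptor of these cells. Described here are 31 named genes of this system: 15 integrin subunits (10 alpha, 5 beta), 8 laminin subunits, the linkers Nid1 and Nid2, the proteoglycans Hspg2 and Agrn, the receptor Dag1, and the matrix proteins Fn1, Fbln2 and Sparc. They were taken by symbol from a fixed list, and all 31 were found among the 25261 gene identifiers of the series. All 31 passed the filter on low values and were tested.

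RNA was sequenced from adult neural stem cells of C57BL/6 mice aged 8 weeks. Cells of the ctrl group (2 libraries) had been infected with a lentivirus that carried a scramble shRNA, and cells of the shOGT group (2 libraries) with a lentivirus that carried an shRNA directed at mouse Ogt, so that both groups went through infection. Ogt encodes O-GlcNAc transferase, which attaches N-acetylglucosamine to nuclear and cytoplasmic proteins. For the brain region, the number of mice, the hairpin sequence and the time after infection nothing is stated in the sources used here. Nor do the labels say that replicates are separate cultures, so that p-values reflect only the spread among these 4 libraries, which may be technical.

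Values are the deposited signal per gene, which behaves like a read count divided by 1 factor per library, and the libraries held 15697508 to 17753976 implied reads. Ogt measured 4112 and 4137 in ctrl against 3379 and 3516 in shOGT (-0.26 ± 0.04, log2 fold change ± SE, adjusted p = 0.00876 in limma). Genes with a limma adjusted p under 0.05, over all 21829 genes tested, are called higher or lower, and fold changes are on the log2(value + 1) scale. Of 12 markers of neural stem cells and radial glia, all were present, with sums of 135887 and 139525 in ctrl against 126472 and 132354 in shOGT, and Fabp7 (-0.49) was among those called lower. Markers of microglia summed to at most 13.2 (6 of 10 listed genes in the files). Those of fibroblasts and meninges (7 of 9 in the files) summed to 317.1 and 335.3 in ctrl against 161.6 and 167.8 in shOGT. Most of this was Pdgfra, which progenitors of oligodendrocytes share and which was called lower (287 and 303 against 132 and 137, log2 fold change -1.13), and without it the sums were 29.8 to 32.7. Markers of endothelial cells (6 of 10 in the files) summed to 54.9 and 68.5 in ctrl against 85.1 and 87.7 in shOGT, with Pecam1 at 2.99 to 5.66. Those of neuroblasts and neurons summed to 15854 and 16390 in ctrl against 18003 and 17790 in shOGT, nearly all of it Map2, which was called higher (0.15). Of the rest, Dcx (-1.11) and Dlx2 (-0.20) were lower and Tubb3, Dlx1, Rbfox3, Syp and Snap25 higher, none of them called. Dcx measured 40.9 and 66.5 in ctrl against 19.1 and 29.2 in shOGT. Markers of ependymal cells summed to 677.1 and 734.1 in ctrl against 828.2 and 804.1 in shOGT. Most of this was Foxj1, at 558 and 620 in ctrl against 731 and 677 in shOGT (0.26). Ccdc153 was higher (0.28) and Dynlrb2 hardly differed (0.002), while Rsph1 (-0.13), Ak7 (-0.26) and Dnah9 (-0.33) were lower, none of them called. The sums of the oligodendrocyte lineage, led by Olig2, overlapped between the groups (23748 to 24667 for the summed list). Without the shared Cspg4 and Pdgfra they were 21215 and 21300 in ctrl against 22295 and 21743 in shOGT. Those of pericytes and smooth muscle were 2461 and 2377 in ctrl against 2315 and 1950 in shOGT. Most of this was the shared Cspg4, and without it the sums overlapped (74.4 to 121). No marker in the files was at 0 in every library, but neither was any other of their 25261 gene identifiers. This was thus fixed in advance, and it says nothing of listed markers that the files lack. The part of the markers in the results that follow was not tested. In such bulk samples, fewer cells of a type and less RNA per cell cannot be told apart.

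Among the 31 genes, the integrin subunits Itga6, Itga7 and Itgb1 were lower in shOGT, by 16.4% to 26.0%, and the laminin chain gene Lama4 was higher, by 40.0%. These 4 were the called members: 3 of 31 (9.68%) were lower, where 2.90% of all tested genes were, and 1 of 31 (3.23%) was higher, where 1.96% of all tested genes were (4 of 31 against 4.86% in either direction). Calls were more frequent among well measured genes. Of the 11078 tested genes with a mean value of at least 100, to which 25 of the members belong, 5.60% were lower and 3.62% higher. The 3 genes called lower were all integrin subunits, and none of the other 16 members was called lower. The median log2 fold change of the members was -0.02, and that of all tested genes was 0.001. The groups did not overlap in 19 of the 31 members (61.3%), against 49.3% of all tested genes. In 10 of them shOGT was the higher group, which held for 25.0% of all tested genes, and in 9 the lower, which held for 24.3%.

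**Figure D1:**
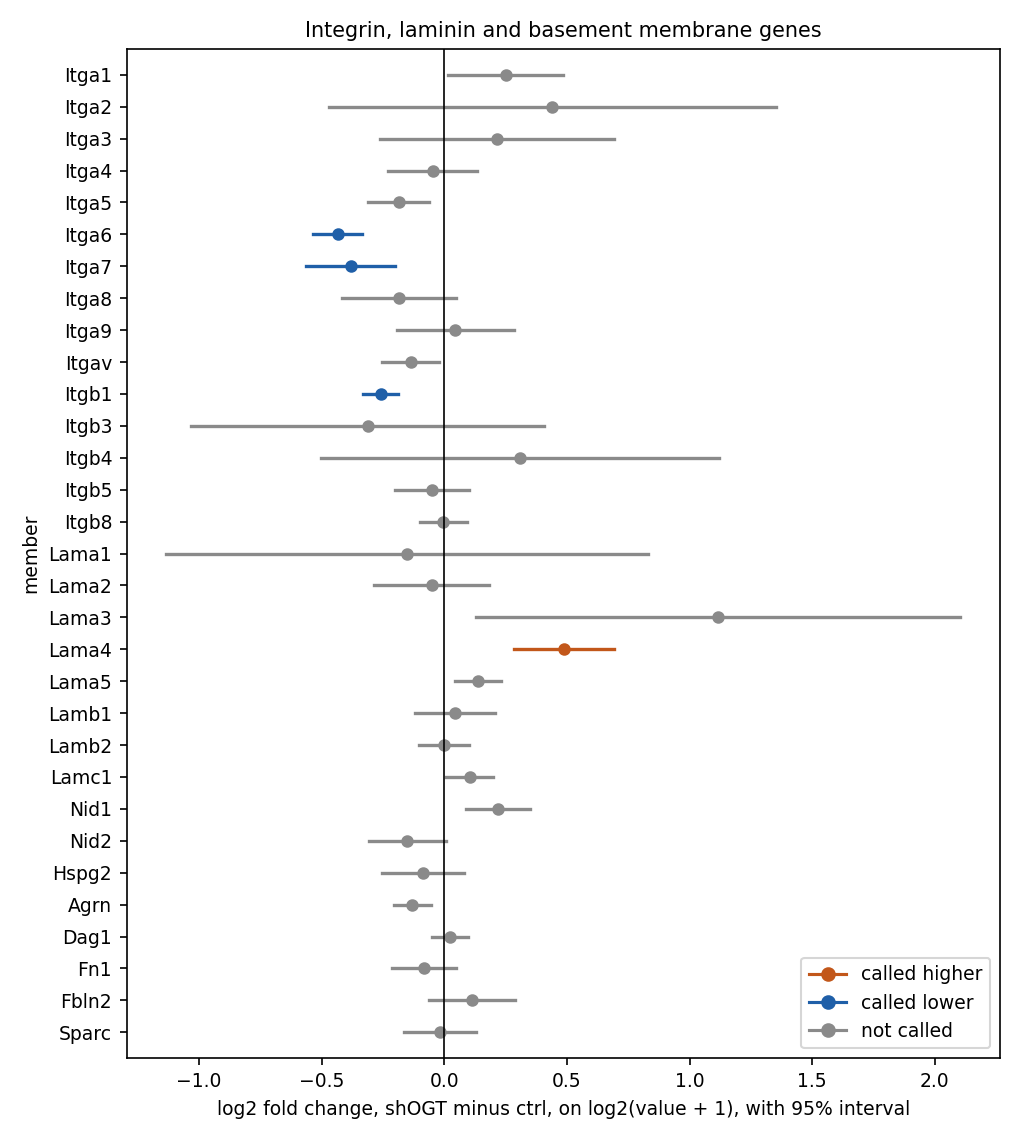
Log2 fold change of each of the 31 members (x axis, shOGT minus ctrl on log2(value + 1); points are limma estimates and lines their 95% intervals), with called genes in colour. Itga6, Itga7 and Itgb1 lie below 0 and Lama4 above it, and the widest intervals are those of the 6 members with a mean under 60 in both groups.

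Per length of exon, the members spanned more than 3 orders of magnitude in level. Itgb1, the beta subunit shared by most laminin, fibronectin and collagen receptors, had the highest level of all members, at 3757 and 3728 signal per kb in ctrl against 3080 and 3177 in shOGT. Dag1 (1408 per kb on average), Sparc (910.9), Agrn (780.7), Itgav (741.5) and Lamc1 (660.8) came next. Below 10 per kb in every library lay Itga3, Itgb3, Itgb4, Lama1, Itga2 and Lama3, of which Lama3 was the lowest, at 0.46 to 1.23 per kb. Itgb4, the partner that ties Itga6 to hemidesmosomes in epithelia, was thus at 1.84 to 2.88 per kb beside an Itgb1 level of at least 3080 per kb.

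**Figure D2:**
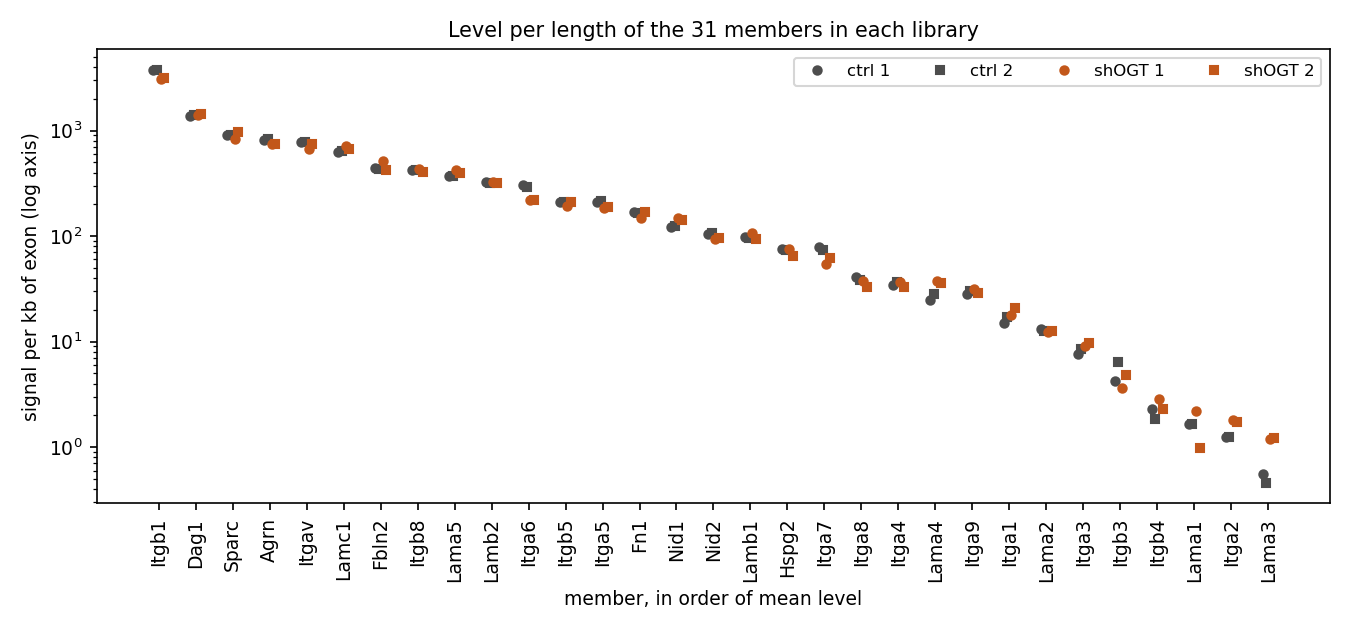
Signal per kb of exon (y axis, log scale) of each member in each of the 4 libraries, in order of mean level. Itgb1 stands first at 3080 to 3757 per kb and Lama3 last at 0.46 to 1.23 per kb, and for most members the 4 libraries lie close together on this scale.

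Itga6 encodes a laminin-binding alpha subunit that is used as a surface marker of stem cells in several tissues. It lies on the plus strand of chromosome 2 at 71745616 to 71858416 (GRCm38, the assembly that mm10 names). Its values were 2724 and 2632 in ctrl against 1982 and 1980 in shOGT, so that the groups were well apart and the shOGT libraries nearly equal. On the log2 scale Itga6 fell by 0.43 ± 0.04 (SE; adjusted p = 0.00152 in limma), the largest fall among the 31 genes.

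Earlier results of these data had shown that the hexamers GCTATC and GTACCC are frequent in the 3′ UTRs of lower genes, and Itga6 is the one member called lower whose 3′ UTR holds either of them. They were searched on the transcript strand, in the 3′ UTR of the coding transcript with the longest coding sequence (GENCODE M21), and they do not overlap each other. The match in Itga6 is shown with its surroundings on the plus strand of chromosome 2, at 71856355 to 71856384 (GRCm38), and the hexamer is in capitals:
Itga6 3′ UTR: gctaacagagtgGCTATCccagcctgctcc
The match starts at base 352 of a 3′ UTR of 756 bases. One or both hexamers were in the 3′ UTR of 318 of 599 genes called lower (53.1%), of 96 of 399 called higher (24.1%), of 3896 of 14873 tested genes with a 3′ UTR (26.2%) and of 10 of the 31 members. Because the hexamers came from earlier results of these same data, the share among lower genes is no independent test. The other 9 members with a match were not called, with log2 fold changes from -0.19 in Itga8 to 0.44 in Itga2. The 3′ UTRs of Itga7, Itgb1 and Lama4 held neither. The median 3′ UTR length was 1335 bases in lower genes, 1325 in higher genes and 948 in all tested genes, and the part of the match in the fall of Itga6 was not tested.

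Itga7, which encodes another laminin-binding alpha subunit, known best from muscle, measured 632.3 and 602.1 in ctrl against 444.4 and 504.3 in shOGT. The shOGT libraries differed from each other, yet both lay below both ctrl libraries. Its log2 fold change was -0.38 ± 0.08 (limma adjusted p = 0.0301). The gene lies on the plus strand of chromosome 10 at 128933818 to 128958282.

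Itgb1, the common partner of Itga6 and Itga7, measured 15333 and 15216 in ctrl against 12568 and 12964 in shOGT. The spread within each group was small beside the distance between them. The log2 fold change was -0.26 ± 0.03 (limma adjusted p = 0.00334), and the gene lies on the plus strand of chromosome 8 at 128685654 to 128733200.

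The fibronectin receptor subunit Itga5 and the vitronectin receptor subunit Itgav did not pass the test. Itga5 measured 1043 and 1050 in ctrl against 903.7 and 936.1 in shOGT, without overlap (log2 fold change -0.19 ± 0.06, limma adjusted p = 0.0978). Itgav measured 8293 and 8381 in ctrl against 7149 and 8041 in shOGT, where the distance rested mostly on shOGT 1 (-0.14 ± 0.05, adjusted p = 0.18; -0.05 without shOGT 1 and -0.22 without shOGT 2). The remaining alpha subunits were not called either. Itga1, a collagen and laminin receptor subunit, measured 282.2 and 321.4 in ctrl against 333.8 and 384.6 in shOGT (0.25 ± 0.10, adjusted p = 0.229). Itga2 and Itga3 measured 0.44 and 0.22, Itga8, whose ligand is nephronectin, -0.19, and Itga4 and Itga9, which bind fibronectin, Vcam1 or tenascin, -0.05 and 0.04, all as log2 fold changes. The interval of Itga9 reached from -0.19 to 0.28, and that of the poorly measured Itga2 from -0.47 to 1.35.

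Among the other beta subunits, Itgb8, a partner of Itgav which activates latent TGF-beta, measured 4668 and 4671 in ctrl against 4816 and 4504 in shOGT. The ctrl values lay between the shOGT values, and the difference was -0.004 with a 95% interval of -0.10 to 0.09 on the log2 scale. Itgb5 measured -0.05 ± 0.07, and the low Itgb3 and Itgb4 -0.31 ± 0.32 and 0.31 ± 0.36. None of these 4 passed.

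The make-up of the integrin alpha members, taken per length, is a description of the libraries and not a test. Itga6 made up 20.2% and 19.6% of the summed alpha signal per kb in ctrl against 17.5% and 16.3% in shOGT. The level of Itga6 behind this share depends on the length used. Per kb of exon union it was 301.8 and 291.6 in ctrl against 219.6 and 219.3 in shOGT. Per kb of the longest transcript it was 631.9 and 610.6 in ctrl against 459.8 and 459.3 in shOGT. Itgav made up 51.8% and 52.3% in ctrl against 52.9% and 55.6% in shOGT, and Itga5 14.1% to 14.6% in all 4 libraries. Itgav therefore held the largest share of the alpha members in each library. Of the beta members, Itgb1 held 85.5% and 85.4% in ctrl against 82.9% and 83.5% in shOGT, and Itgb8 9.60% and 9.67% in ctrl against 11.7% and 10.7% in shOGT.

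**Figure D3:**
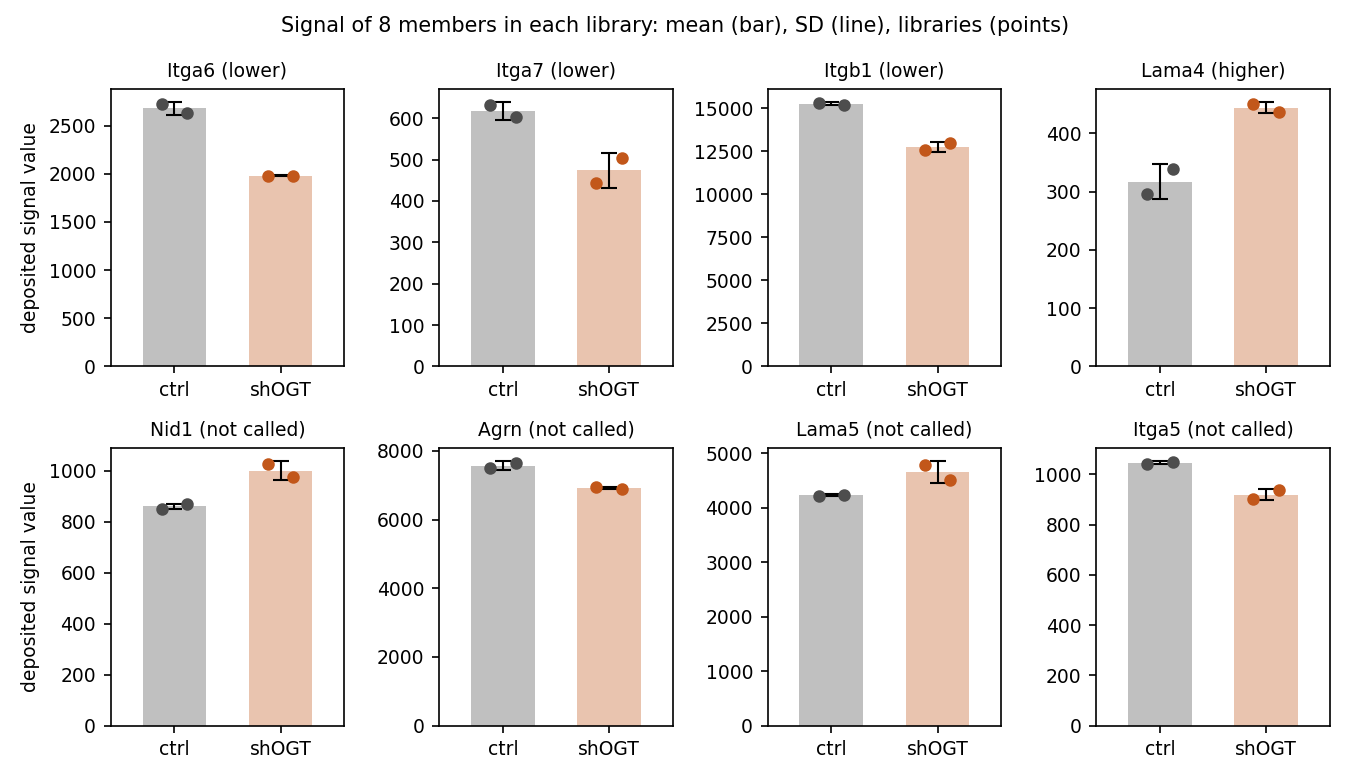
Deposited signal (y axis, from 0) of the 4 called members and of 4 members that were not called, by group; bars are means, lines are SDs of 2 libraries and points are single libraries. Itga6, Itga7 and Itgb1 are lower and Lama4 higher in both shOGT libraries, and of the uncalled genes Nid1 and Lama5 have means higher by 16.4% and 10.1% in shOGT, while those of Agrn and Itga5 are lower.

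On the ligand side, Lama4 encodes the laminin alpha chain of blood vessel and other mesenchymal basement membranes. It measured 296.2 and 338.3 in ctrl against 450.8 and 437.4 in shOGT, so that the shOGT libraries agreed more closely than the ctrl libraries did. The log2 fold change was 0.49 ± 0.09 (limma adjusted p = 0.0174), which was 0.39 without ctrl 1 and 0.58 without ctrl 2. Lama4 lies on the plus strand of chromosome 10 at 38965515 to 39110188. The summed endothelial markers moved the same way, from 54.9 and 68.5 to 85.1 and 87.7. Log2 fold changes of the 6 ran from 0.295 to 1.21, with a median of 0.49. In 5 of the 6 the groups did not overlap, with shOGT higher, which held for 25.0% of all tested genes. At these low levels 0 of the 6 were called in limma (0 at an unadjusted p under 0.05). Their part in the value of Lama4 was not tested. Among the laminin alpha chains Lama4 was a minor one, at 5.98% and 6.76% of the summed alpha chain signal per kb in ctrl against 7.88% and 8.10% in shOGT. With the longest transcript as the length of each gene, its mean share in shOGT was 14.5%.

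Lama5 was the main laminin alpha chain, with 88.6% to 90.2% of the summed alpha chain signal per kb (80.7% in shOGT with the longest transcript as the length). It measured 4213 and 4239 in ctrl against 4791 and 4515 in shOGT, without overlap, and did not pass (0.14 ± 0.04, limma adjusted p = 0.0994). Its gamma partner Lamc1, the most abundant laminin chain per length, measured 5207 and 5329 in ctrl against 5853 and 5477 in shOGT (0.10 ± 0.04, adjusted p = 0.214). The beta chains lay closer to 0: Lamb1 measured 0.05 ± 0.07, and Lamb2 -0.002 with an interval of -0.10 to 0.10.

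The chains Lama1, Lama2 and Lama3 were scarce. Lama2, the chain affected in a congenital muscular dystrophy, measured 217.4 and 205.3 in ctrl against 203.1 and 204.6 in shOGT (-0.05 ± 0.10). Lama3, of epithelial basement membranes, had 5.98 and 4.96 in ctrl against 12.8 and 13.2 in shOGT, the largest log2 fold change of the members (1.12 ± 0.44) on the fewest reads, and it did not pass (adjusted p = 0.203). Lama1 was at 15.96 and 15.9 in ctrl against 21.3 and 9.43 in shOGT, so that its shOGT libraries lay on either side of ctrl.

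Nid1, a nidogen that links laminin to type IV collagen, measured 851.7 and 868 in ctrl against 1026 and 975.7 in shOGT. Both shOGT values were higher, and the gene missed the threshold (0.22 ± 0.06, limma adjusted p = 0.067). It passed with libraries rescaled to equal totals (adjusted p = 0.047), and its adjusted p ranged from 0.0153 to 0.423 over all settings tried. Its relative Nid2 differed in the other direction, at 537.5 and 549.6 in ctrl against 482.7 and 496.8 in shOGT (-0.15 ± 0.07, adjusted p = 0.277). Exons of Nid2 overlap those of Rtraf on the other strand by 437 bases, and Rtraf is well expressed (mean value 1645), so that reads of the pair could not be told apart without strand.

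Agrn encodes agrin, a heparan sulfate proteoglycan that binds laminin and dystroglycan. It measured 7491 and 7658 in ctrl against 6943 and 6903 in shOGT, without overlap, and missed the threshold (-0.13 ± 0.03, limma adjusted p = 0.0661). Hspg2, which encodes perlecan, measured 1089 and 1053 in ctrl against 1090 and 935.1 in shOGT (-0.09 ± 0.07), with overlapping groups. Fn1, fibronectin (-0.08 ± 0.06), Fbln2, fibulin 2 (0.11 ± 0.08), and Sparc, a collagen-binding matricellular protein (-0.02 ± 0.07), overlapped between the groups as well. In these 3 genes the shOGT libraries differed more than the ctrl libraries. Fbln2 had 2785 and 2736 in ctrl against 3295 and 2701 in shOGT, and Sparc 3461 and 3472 in ctrl against 3160 and 3709 in shOGT.

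Dag1 encodes dystroglycan, the other main laminin receptor of neural progenitors and glia. It measured 8802 and 8960 in ctrl against 9005 and 9034 in shOGT. The difference was 0.02 on the log2 scale (95% interval -0.05 to 0.10). Both shOGT values lay above both ctrl values, by less than the distance between the ctrl libraries. Of 16 tested genes of the complex around dystroglycan, 3 were higher and 1 lower (5 and 2 at an unadjusted p under 0.05). For this and the further lists, 1.96% of all tested genes were called higher and 2.90% lower. Among genes with a mean value of at least 100 these shares were 3.62% and 5.60%. At an unadjusted p under 0.05, 1969 of all 21829 tested genes were higher and 2243 lower. Kcnj10, a potassium channel that the complex anchors in astrocytes, rose (0.41 ± 0.06, limma adjusted p = 0.00467), as did Utrn, utrophin (0.22), and Dmd, dystrophin (0.17), the links to actin. Sgce, epsilon-sarcoglycan, fell (-0.31). Of 18 enzymes that build the laminin-binding sugar of dystroglycan, 0 were called in limma (1 higher and 5 lower at an unadjusted p under 0.05).

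Inside the cell, 3 of 44 tested adaptors and kinases of integrin adhesions were higher and 3 lower, with a median of 0.03. Of all tested genes, 1.96% were called higher and 2.90% lower. At an unadjusted p under 0.05 there were 11 higher and 3 lower in the list, against 1969 and 2243 of all 21829 tested genes. Zyx, zyxin, which marks mature adhesions, fell from 822.7 and 833.3 to 590.1 and 552.4 (-0.54 ± 0.07, limma adjusted p = 0.00322). Fermt2, kindlin-2, which binds the tail of Itgb1 and helps to activate it, fell from 4116 and 4130 to 3377 and 3633 (-0.24 ± 0.05, adjusted p = 0.0199). Elmo1, part of a Rac activator, fell as well (-0.49). Parvb, beta-parvin (0.34), Tns2, a tensin (0.38), and Vcl, vinculin (0.31), rose. Exons of Vcl overlap 2090 bases of the well expressed Ap3m1 on the other strand, and whether counting used strand is not stated. The talins Tln1 (0.09) and Tln2 (-0.04) and focal adhesion kinase, Ptk2 (0.13), did not pass.

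Of 16 membrane proteins that associate with integrins, 4 were higher and 2 lower (5 and 4 at an unadjusted p under 0.05). Over all tested genes, 1.96% were called higher and 2.90% lower (1969 and 2243 of 21829 at the unadjusted threshold). Cd47, a thrombospondin receptor that binds integrins laterally, fell from 899.5 and 998.9 to 706 and 706.1 (-0.42 ± 0.07, limma adjusted p = 0.00959), and the tetraspanin gene Tspan3 fell (-0.28). The caveolin genes Cav1 (0.56) and Cav2 (0.28), the tetraspanin gene Cd81 (0.19) and Slc3a2 (0.28), whose product binds the tail of Itgb1, rose. Cd151, the tetraspanin that binds Itga3 and Itga6 directly, measured 1956 and 1985 in ctrl against 1764 and 1874 in shOGT (-0.12 ± 0.05, adjusted p = 0.235).

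Of 17 further receptors and co-receptors of the basement membrane, 4 were lower and 0 higher in limma (8 lower and 2 higher at an unadjusted p under 0.05). The 4 were syndecans and glypicans, and the list holds further members of both families. Over all tested genes, 2.90% were called lower and 1.96% higher (2243 and 1969 of 21829 at the unadjusted threshold). Sdc1, syndecan 1, fell from 910.5 and 889.8 to 652.8 and 628.8 (-0.49 ± 0.06, limma adjusted p = 0.00334), and Gpc1, glypican 1, from 2099 and 2263 to 1648 and 1576 (-0.44 ± 0.05, adjusted p = 0.00326). Sdc3 (-0.25) and Gpc6 (-0.36) were the others. The syndecans and glypicans that were not called measured -0.18 (Sdc4), 0.12 (Sdc2), 0.09 (Gpc4) and 0.16 (Gpc2). Ddr1, a collagen receptor, measured 0.03 ± 0.04, and Bcam, a receptor of Lama5, -0.31 ± 0.12 (adjusted p = 0.21).

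Of 23 other tested components of the basement membrane, 3 were higher and 1 lower (4 and 2 at an unadjusted p under 0.05). Over all tested genes, 1.96% were called higher and 2.90% lower (1969 and 2243 of 21829 at the unadjusted threshold). Col18a1, the core of a collagen and heparan sulfate proteoglycan, rose from 475.7 and 452.3 to 653.9 and 570.3 (0.40 ± 0.08, limma adjusted p = 0.0293). Papln, papilin (0.59), and Pxdn, peroxidasin, which cross-links type IV collagen (0.23), rose as well. Npnt, nephronectin, the ligand of Itga8, fell from 1484 and 1492 to 1095 and 1166 (-0.40 ± 0.05, adjusted p = 0.00478). The type IV collagen chains Col4a1 (-0.16 ± 0.05, adjusted p = 0.104) and Col4a2 (0.01 ± 0.07) did not pass.

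Of 28 tested further integrin ligands and matricellular genes, 2 were higher and 0 lower in limma (4 and 4 at an unadjusted p under 0.05). Over all tested genes, 1.96% were called higher and 2.90% lower (1969 and 2243 of 21829 at the unadjusted threshold). The 2 were Reln, reelin (0.61 ± 0.09, limma adjusted p = 0.00873), and Tnr, tenascin R (0.29 ± 0.06, adjusted p = 0.0308). Tnc, tenascin C, a ligand of Itga9 that stem cells of the adult brain express, had 4796 and 5234 in ctrl against 5366 and 3989 in shOGT, with groups that overlapped (-0.11 ± 0.11). Of 12 tested integrin and laminin subunits outside the 31, 0 were called in limma; Itga2b (0.48) and Itgae (0.56), both of low level, were the 2 with an unadjusted p under 0.05.

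**Figure D4:**
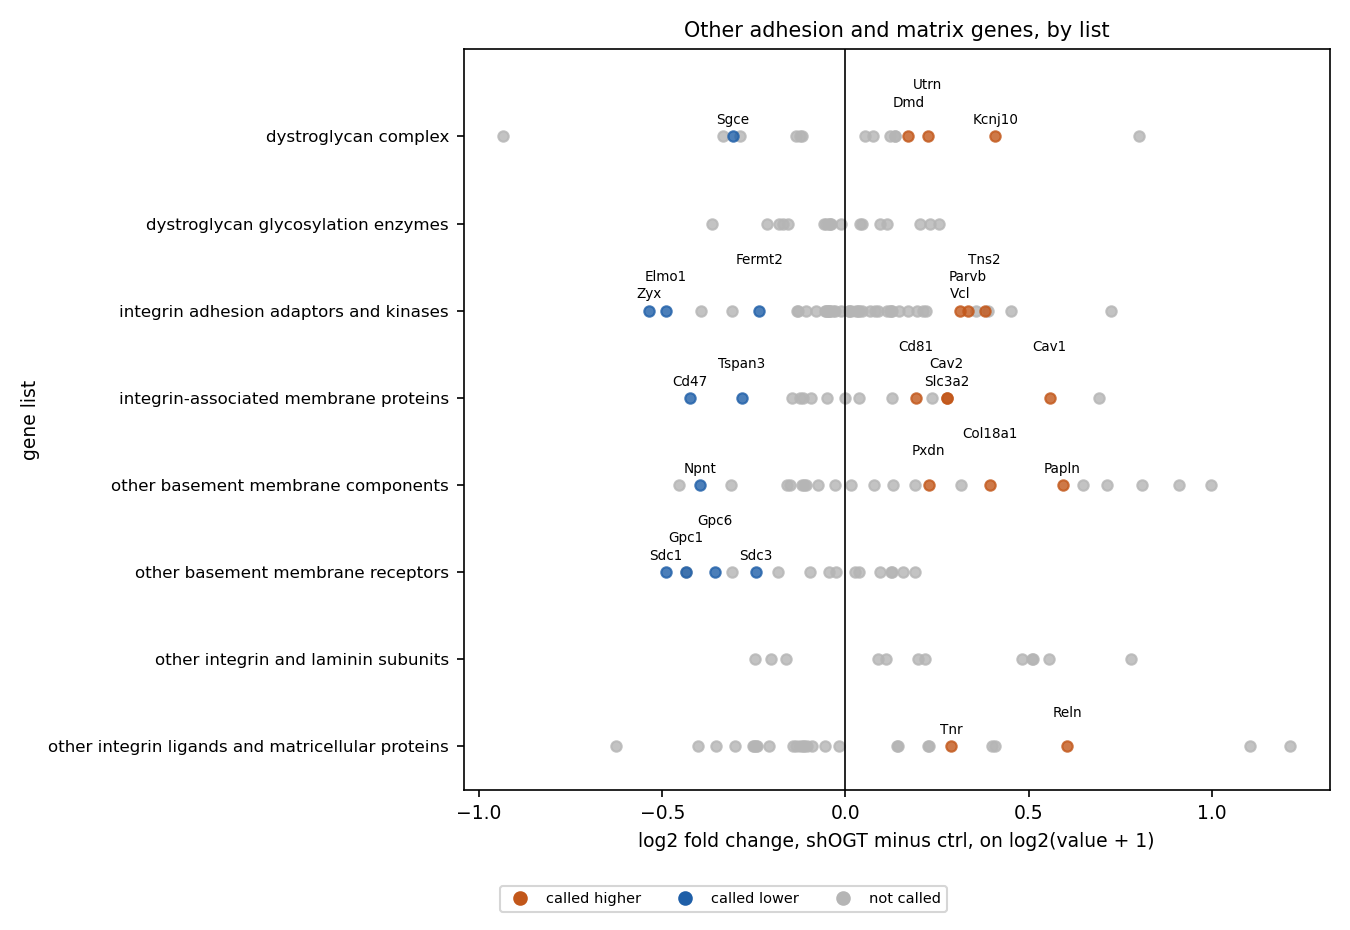
Log2 fold change (x axis, shOGT minus ctrl on log2(value + 1)) of every tested gene in 8 further lists (y axis), with called genes named and in colour. All called genes among the other basement membrane receptors are lower (Sdc1, Gpc1, Gpc6 and Sdc3), while the adhesion adaptors hold 3 higher and 3 lower genes.

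With 2 libraries a group these calls rest on the model's shared estimate of the spread. Without shOGT 1 or without shOGT 2 the log2 fold changes were -0.44 and -0.43 in Itga6 and -0.29 and -0.47 in Itga7. They were -0.24 and -0.28 in Itgb1 and 0.47 and 0.51 in Lama4. Without ctrl 1 or without ctrl 2 they were -0.41 and -0.46 in Itga6 and -0.35 and -0.42 in Itga7. In Itgb1 they were -0.25 and -0.26, and in Lama4 0.39 and 0.58. The calls of these 4 genes were lost in some fits that left out a library, and in those fits no gene at all was called. The counts of called genes in the further lists also changed with the library left out, as did those over all tested genes.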

How the data were processed

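The 4 deposited tables give 1 signal value per Ensembl gene and library. The genome build was mm10, per the submitters' processing notes (annotation, aligner, counting tool, strand setting and scaling: not given in the sources used here). All deposited signal values of a library were whole multiples of 1 step (0.943 to 1.06; tolerance 0.01 of a step), from which the implied reads follow. Between replicates the chi-square per gene on these reads was 2.02 (ctrl) and 3.33 (shOGT), where sampling noise gives about 1, so each library counted as 1 sample.

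Symbols, positions, exon lengths (union of exons) and 3′ UTRs came from GENCODE M21 (25242 of 25261 identifiers matched). limma 3.58.1 in R 4.3.3 was fitted to log2(value + 1) with a variance trend, for genes of at least 1 in at least 2 libraries, with Benjamini-Hochberg adjustment over all 21829 genes; it was tested on simulated data. The scale understates changes of low genes. All 31 members are named; of the other lists, at most 4 called genes each by smallest p were to be named, and further called genes and genes named without a call were chosen after their values were seen. The members and lists were chosen with earlier results of these data known. No set test was run.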

Additional observations from a re-analysis of the deposited data

How the results depend on the processing

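Which genes passed depended on the settings, and the 4 called members kept their direction in all settings run. Pseudocounts of 0.5 and 5 kept all 31 members on their side of the threshold. With no filter, quantile normalization or no variance trend limma called 0 genes, members included, with 4302, 3998 and 2763 genes and 10, 11 and 6 members at an unadjusted p under 0.05. At a minimum of 10 in 2 libraries 822 genes were higher and 1133 lower, with 3 members higher and 4 lower (Lama5, Nid1 and Agrn joined). With libraries rescaled to equal totals 593 were higher and 585 lower, against 427 and 633, and 2 members were higher (Nid1 joined). A minimum of 10 with quantile normalization, chosen after seeing the data, gave 799 higher and 858 lower genes and 2 higher members (Nid1 joined). Leaving out a library gave 0 to 573 higher and 0 to 660 lower genes, 0 to 1 higher and 0 to 3 lower members, and a member median from -0.032 to 0.025 (0.025 without shOGT 2); the fits with 0 calls had 2484 to 3389 genes at an unadjusted p under 0.05. The lone library of a group was assumed to vary like the other group. The second form of this, on the same 21829 genes, was chosen after seeing the data. limma's prior degrees of freedom were 7.39 as reported, 14.81 at a minimum of 10, 1.03 to 3.77 in the fits with 0 calls and infinite without a ctrl library (filter applied anew) or with the replicate block.

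The replicate numbers are shared by the groups, but nothing says that they pair the libraries, and the deviations of same-numbered libraries correlated at 0.024 over 11080 genes. With the replicate block 1007 genes were higher and 1295 lower, and 3 members higher and 6 lower (Itga5, Itgav, Lama5, Nid1 and Agrn joined). Count-based tests and trimmed-mean scaling, planned for whole counts, were not run. The steps of the ctrl libraries lie close to 1, and for such tests their reads were not treated as recovered counts. The chi-square between replicates did use the implied reads, those of ctrl included. All values of the ctrl libraries were whole multiples of the step, so the data do not show that recovery failed. Depth limits Itga2, Itga3, Itgb3, Itgb4, Lama1 and Lama3, whose group means were under 60.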
